A study of Mus musculus with 4 samples.

Results

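The ecto-ADP-ribosyltransferases had 7 probes for 6 genes on the arrays of this series, Art1, Art2a, Art2b, Art3, Art4 and Art5, out of 33012 probes and 15619 genes with a symbol. The members were taken by gene symbol, and the family was chosen by its measured differences from the parental line on these same arrays, so those differences are given as a description and without a test. RNA of 4 cultured mouse melanoma lines of C57BL6 origin was analysed with the 1 labelled array of each line. B16 is the parental line, started from B16F1 cells. B16-RI was recovered from lymph node metastases after B16F1 cells had been placed intradermally in C57BL6 mice. The second lymph node line B16-R2 and the lung line B16-R2L, which the sample labels write as B16-RII and B16-RIIL, came from lymph node and lung metastases after B16-RI had been implanted in the same way. All lines were grown in DMEM with fetal bovine serum and none carried a transgene or received an agent, as far as the labels say. The age and number of the mice behind each passaged line are not given in the sources used here. The RNA on an array was pooled from cultures of different passage number, and with 1 array analysed per line no difference below has a replicate check. The 3 passaged lines share the single B16 array as their reference.

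Ecto-ADP-ribosyltransferases sit on the outer face of the plasma membrane, held by a glycosylphosphatidylinositol (GPI) anchor, or are secreted. The active members split NAD outside the cell and place its ADP-ribose on arginine residues of surface and secreted proteins. Art1 is best known from skeletal and cardiac muscle, and Art2a and Art2b from mouse T cells, where they modify the ion channel P2rx7. Art3 is known from testis and muscle and has no established transferase activity. Art4 carries the Dombrock blood group on red cells, and Art5 is a secreted member.

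The promoter windows of the members that were highest above B16 are shown here because these genes differed together across the passaged lines. Each window runs from 250 bases before to 50 bases after an annotated start, 5′ to 3′ on the strand of the gene, as given by RefSeq for build GRCm38.p6. The gene table lists 3 starts for Art3, the first and second 55.1 kb apart and the second and the last 1.25 kb apart, and the first 2 are printed. Capitals mark a match to a searched motif.
Art3, first start, chr5:92331577-92331876, plus strand: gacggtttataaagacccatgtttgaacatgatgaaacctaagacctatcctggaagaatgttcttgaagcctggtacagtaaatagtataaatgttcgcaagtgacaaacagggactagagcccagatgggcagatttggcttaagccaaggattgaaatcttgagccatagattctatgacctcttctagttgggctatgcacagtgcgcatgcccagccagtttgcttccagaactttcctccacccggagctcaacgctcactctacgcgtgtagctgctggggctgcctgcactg
Art3, second start, chr5:92386637-92386936, plus strand: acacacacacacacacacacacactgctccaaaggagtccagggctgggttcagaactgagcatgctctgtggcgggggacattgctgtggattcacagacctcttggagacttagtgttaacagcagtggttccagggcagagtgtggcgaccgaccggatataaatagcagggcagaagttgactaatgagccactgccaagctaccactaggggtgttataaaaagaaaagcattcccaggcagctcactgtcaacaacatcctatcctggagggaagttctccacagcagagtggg
Art4, chr6:136857551-136857850, minus strand: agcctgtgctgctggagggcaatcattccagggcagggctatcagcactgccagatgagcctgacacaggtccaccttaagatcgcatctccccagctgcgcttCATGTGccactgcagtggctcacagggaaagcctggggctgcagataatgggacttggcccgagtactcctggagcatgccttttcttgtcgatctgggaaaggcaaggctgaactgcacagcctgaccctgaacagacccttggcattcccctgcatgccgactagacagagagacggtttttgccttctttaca

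Both strands of the 7 member windows in the table were searched for 4 motifs, and the table held no window for Art2a. CATGTG, a motif of the MITF family of basic helix-loop-helix factors, was found in the Art4 window at -146 relative to the start, and 14.2% of 32851 promoter windows hold it. CACGTG, the canonical E-box, was found at -69 in the Art5 window and occurs in 7.15% of windows. The interferon-stimulated response element, searched as a repeat of GAAA with a gap of any 2 bases (3.44% of windows), and the STAT motif TTCNNNGAA (8.30% of windows) were found in none of the 7 windows. No motif was found in the 3 windows of Art3 or in those of Art1 and Art2b.

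A probe was called detected where its signal-to-noise ratio was at least 3 and its flag at most 5000. Of the 7 member probes, 1 was detected on the B16 array, 2 on that of B16-RI and 3 on each array of the second round. Between 13872 and 14855 of all probes were detected on an array, and raw signals had medians of 435, 451, 619 and 554 from B16 through to the lung line. The values below are the deposited normalized signals, in which an array's raw signals were divided by constants. Levels of different probes are not comparable, and the summed signal of a marker list, undetected signals included, serves only to follow that list from array to array. All 5 melanocyte markers with a probe were detected on every array, with a summed signal between 5632 and 6951.

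Art3 was the only member detected on all 4 arrays. Its normalized signal was 6.15 for the parental line, 32.1 for B16-RI, 47.4 for B16-R2 and 27.9 for the lung line. The B16 array was the lowest and the B16-R2 array the highest. The fold over B16 was 5.22 in B16-RI, 7.71 in B16-R2 and 4.54 for the lung line, which are log2 differences of 2.38, 2.95 and 2.18. The signal-to-noise ratio of the Art3 probe was 11.7, 48.3, 56.3 and 33.1 in the same order of arrays, so each signal lay well over the detection limit. Among genes detected on both arrays, the Art3 difference ranked 16 of 7644 in B16-RI, 10 of 7874 in B16-R2 and 31 of 7860 for the lung line. The middle of those distributions was 0.22, 0.44 and 0.25 log2 units, and the 95th percentiles were 0.88, 1.09 and 1.07.

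Art4, the Dombrock carrier, was not detected on B16 and was detected on every passaged array. Its normalized signal was 0.73 on B16, with a signal-to-noise ratio of 1.55, then 4.68 for B16-RI, 11.5 for B16-R2 and 5.24 for the lung line. B16-R2 again held the highest signal. Since the B16 value was under the detection limit, the folds are given as nominal lower bounds. They are set against the probe's own B16 signal, which lay over the dimmest detected signal on B16 (0.31). The words at least before a fold or difference are used in this way throughout. No allowance is made for noise in the undetected signal, so a true fold can be smaller. The Art4 folds were at least 6.41-fold in B16-RI, at least 15.8-fold in B16-R2 and at least 7.18-fold for the lung line, or 2.68, 3.98 and 2.84 log2 units.

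**Figure D1:**
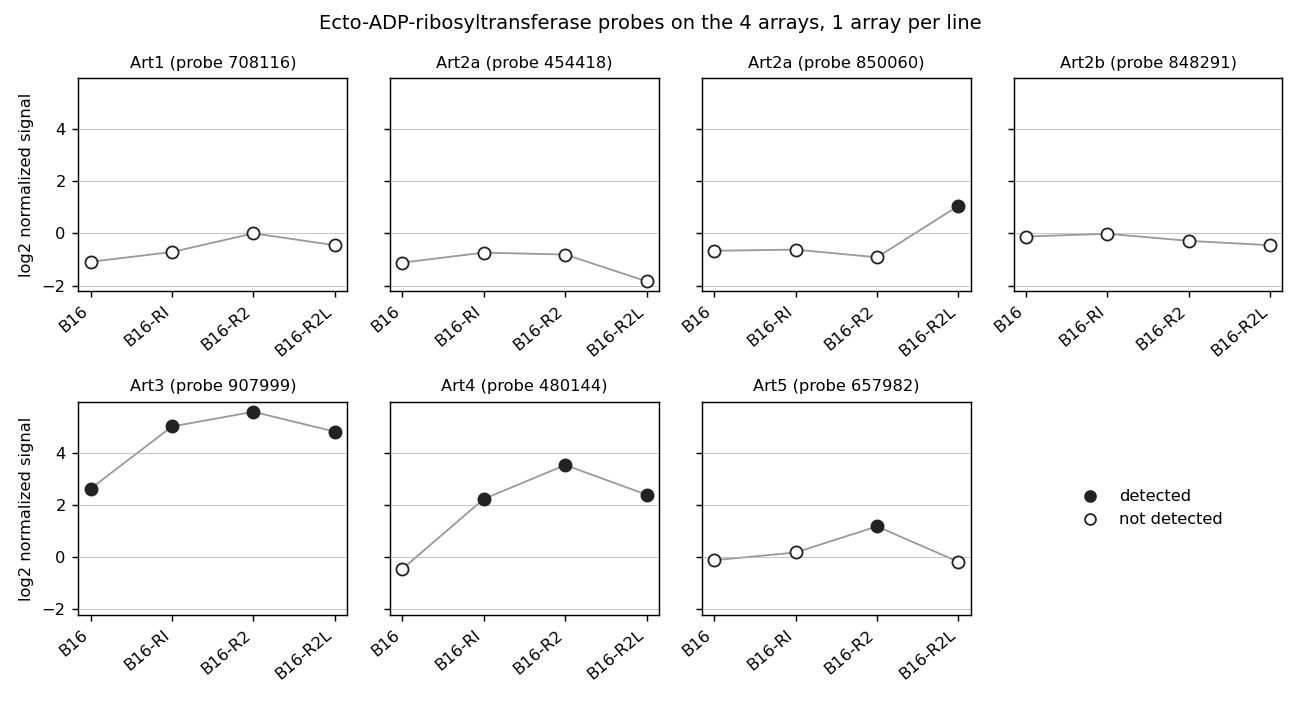
Log2 normalized signal (vertical axis) of each of the 7 member probes on the 4 arrays (horizontal axis), 1 array per line, with filled points for detected and open points for undetected signals. Art3 and Art4 are higher on all 3 passaged arrays than on B16, Art5 and 1 Art2a probe are detected on a single array, and Art1, Art2b and the other Art2a probe on none.

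The remaining members were at or under the detection limit on most arrays. Art5, the secreted member, had a normalized signal of 0.92 for the parental line, 1.13 for B16-RI, 2.26 for B16-R2 and 0.88 for the lung line. It was detected on B16-R2 alone, with a signal-to-noise ratio of 4.60, and was there at least 2.46-fold above B16 (1.30 log2 units). This call was lost when each of the 2 probe sets was centred on its own median, where the bound was 0.87 log2 units, and when a signal-to-noise ratio of 5 was asked.

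Art2a, which the gene table lists as a transcribed pseudogene, had 2 probes that differed. Probe 850060 had a normalized signal of 0.63 for the parental line, 0.65 for B16-RI, 0.53 for B16-R2 and 2.08 for the lung line. It was detected on B16-R2L alone, with a signal-to-noise ratio of 3.79. Its signal there was 3.30-fold the undetected B16 signal (1.72 log2 units), which had a signal-to-noise ratio of 1.14. This call was also lost at a signal-to-noise ratio of 5. Probe 454418 had signals of 0.46, 0.60, 0.57 and 0.28 on the same arrays, was lowest on B16-R2L and was detected on none.

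Art2a and Art2b are close copies, and the probe sequences are not in the files used, so the probes may not tell the copies apart. Art2b, the T cell enzyme, had a normalized signal of 0.92 for the parental line, 0.99 for B16-RI, 0.82 for B16-R2 and 0.73 for the lung line, and Art1, the muscle enzyme, 0.47, 0.61, 1.00 and 0.73. Neither was detected on any array, so no fold is given. Their signal-to-noise ratios reached at most 1.94, for Art1 on B16-R2.

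A gene was counted above B16 when its normalized signal was at least 2-fold higher and its probe was detected on the brighter array. By this rule 2 of the 6 member genes were above B16 in B16-RI (Art3 and Art4), 3 in B16-R2 (with Art5) and 3 in B16-R2L (with Art2a). Of all 15619 genes, 4.77%, 7.38% and 7.14% were above B16 in these lines. No member was below B16, where the same rule counted 4.14%, 3.32% and 3.64% of all genes. The family was picked for these differences, and nothing is read from the counts. Of the genes above B16, 500 of 745 in B16-RI, 599 of 1152 in B16-R2 and 614 of 1115 for the lung line were, like Art4, not detected on B16.

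**Figure D2:**
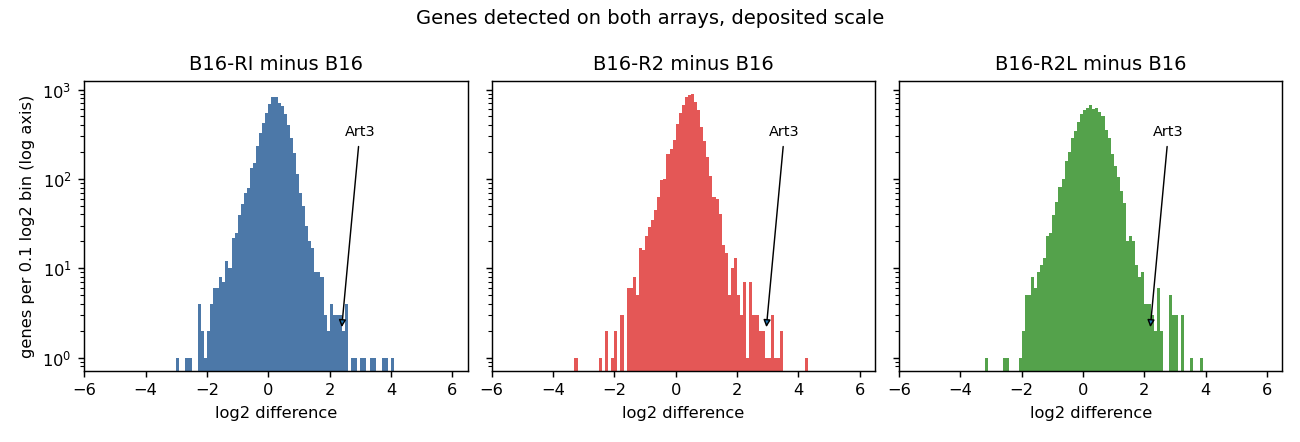
Number of genes (vertical log axis) by log2 difference from B16 (horizontal axis, bins of 0.1) for genes detected on both arrays, 1 panel per passaged line, with an arrow at Art3. Art3, at 2.38, 2.95 and 2.18, lies in the sparse upper tail of each panel, and Art4, not detected on B16, is not among the genes plotted.

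The passaged lines also differed among themselves. Art3 was 1.48-fold higher on B16-R2 than on B16-RI, a log2 difference of 0.56, and 1.70-fold higher on B16-R2 than on the lung line B16-R2L. Art4 was 2.46-fold higher on B16-R2 than on B16-RI (1.30 log2 units) and 2.20-fold higher on B16-R2 than on B16-R2L. The lung line and the first lymph node line were close to each other, with R2L minus RI differences of -0.20 for Art3 and 0.16 for Art4 in log2 units. Both genes were therefore highest on the array of the second lymph node line, and lower on the array of the lung line from the same round.

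The size of the step between passaged lines moved with the scaling of the arrays. Over quantile normalization, median scaling, 75th percentile scaling and centring of each probe set, the Art3 difference between B16-R2 and B16-RI was 0.14 to 0.43 and the Art4 difference 0.88 to 1.17. The difference of B16-R2L minus B16-R2 was -0.57 to -0.35 for Art3 and -0.95 to -0.72 for Art4, so the Art4 step was under 2-fold in all 4 of these scalings. The differences from B16 stayed at 2.23 to 2.38, 2.38 to 2.76 and 1.95 to 2.19 for Art3 in the 3 passaged lines. The Art4 bounds were 2.54 to 2.74, 3.46 to 3.79 and 2.61 to 2.85.

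**Figure D3:**
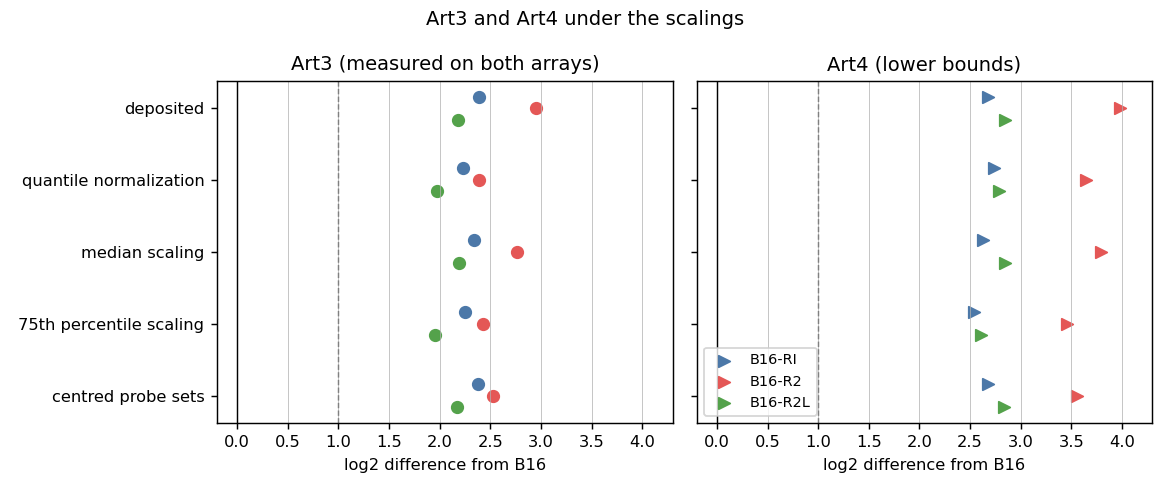
Log2 difference from B16 (horizontal axis) of Art3, measured on both arrays, and of Art4, a lower bound drawn as a triangle, under the deposited scaling and 4 other scalings (vertical axis), with 1 colour per passaged line. All points lie above the dashed line at 1 log2 unit, and the B16-R2 point is the highest of each set.

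Art3 lies on chromosome 5 beside the chemokine genes Cxcl9, Cxcl10 and Cxcl11, and the annotated starts of Cxcl10 and Cxcl11 fall inside the span of Art3. Of the 10 nearest genes with a probe, 5 on each side, 1 was above B16 in B16-RI, 1 in B16-R2 and 2 for the lung line, where 4.77%, 7.38% and 7.14% of all genes were. Cxcl10, an interferon-induced ligand of Cxcr3, had a normalized signal of 61.6 for the parental line, 254 for B16-RI, 289 for B16-R2 and 213 for the lung line. Like Art3, Cxcl10 was lowest on B16 and highest on B16-R2, and its fold over B16 was 4.13, 4.69 and 3.46. Over the 4 other scalings the Cxcl10 log2 difference was 1.65 to 1.98 in B16-RI, 1.80 to 2.38 in B16-R2 and 1.27 to 1.84 for the lung line. Cxcl11, another ligand of Cxcr3, was detected on B16-R2L alone, with a signal of 19.7 that was at least 49.3-fold above B16. The promoter window of Cxcl10 holds the interferon-stimulated response element at -213, and the windows of Art3 hold none.

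The other neighbours of Art3 did not pass 2-fold. Uso1, Naaa, Sdad1 and Scarb2 were detected on every array and stayed within 1 log2 unit of B16, Ccdc158 was detected on 1 array, and Ppef2, Cxcl9 and Stbd1 were detected on none. Whether the Art3 probe lies in exons downstream of Cxcl10 and Cxcl11 cannot be read from the files used, which give no probe positions.

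Among the 10 nearest genes of Art4 on chromosome 6, 2 were above B16 in B16-RI (4.77% of all genes) and none in B16-R2 or B16-R2L (7.38% and 7.14%). These were Rerg and Smco3, which were detected on B16-RI alone, at least 2.20 and 1.51 log2 units above B16, and both calls were lost at a signal-to-noise ratio of 5. Atf7ip, H2aj, Wbp11 and Arhgdib were detected on every array and differed from B16 by less than 1 log2 unit, and Plbd1, Erp27, Pde6h and Ptpro were detected on none. Around Art5 and Art1 on chromosome 7, Trpc2 was below B16 in B16-RI (5.46 on B16 and 1.27, not detected, on B16-RI), a call also lost at a ratio of 5. Il18bp, the interleukin 18 binding protein, was below B16 in B16-R2 and B16-R2L, with 2.54 on B16 and undetected signals of 1.37, 1.24 and 0.55 on the other arrays, and its B16-R2 call was lost under 2 of the 4 other scalings. Lamtor1, Numa1, Rnf121, Pgap2, Rhog, Stim1 and Rrm1 passed in neither direction. Of the neighbours of Art2a, only Folr2 passed, with a signal of 2.32 on B16-R2, its single detected array.

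**Figure D4:**
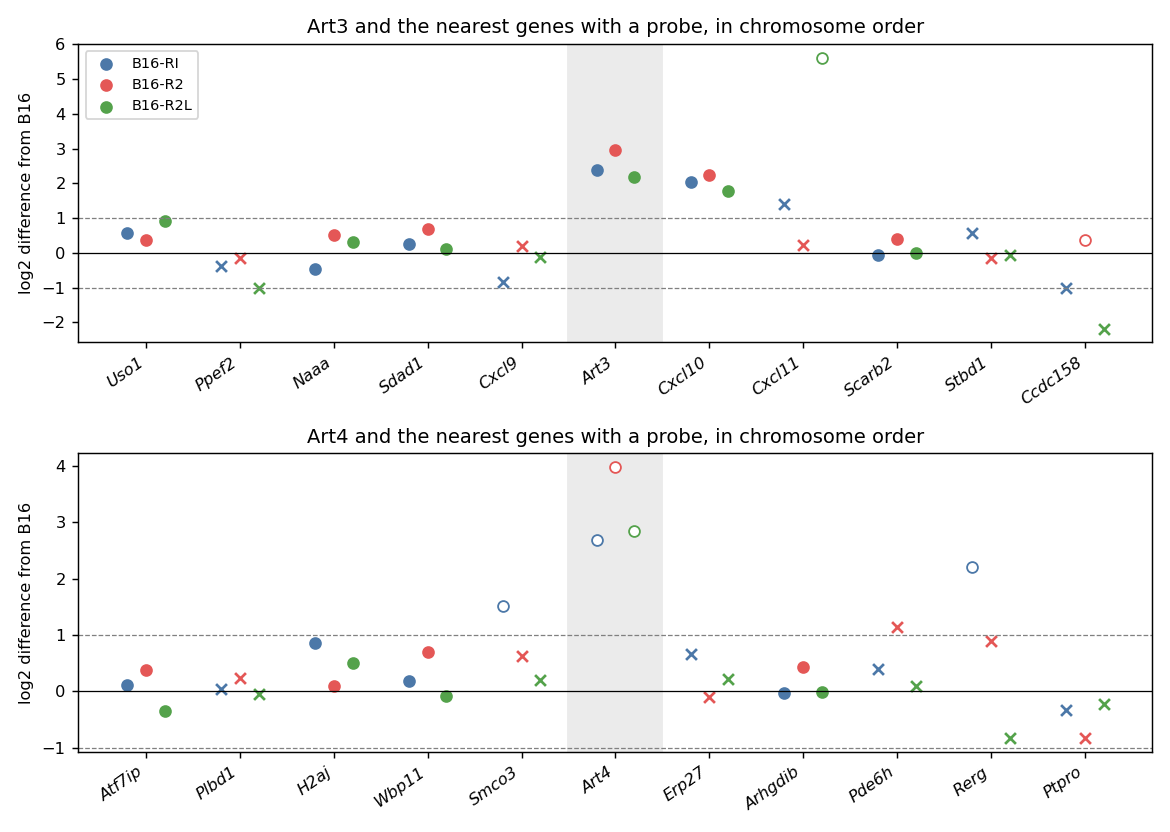
Log2 difference from B16 (vertical axis) of Art3 and Art4, shaded, and of the 10 nearest genes with a probe around each, in chromosome order (horizontal axis), with 1 colour per passaged line. Filled points were detected on both arrays, open points on 1 of them (bounds), and crosses on neither, where no fold is read. Cxcl10 stands with Art3 at 2.05, 2.23 and 1.79, while no neighbour of Art4 passed 1 log2 unit in B16-R2 or B16-R2L with a detected signal.

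The genes whose differences from B16 lay nearest to those of each member on all 3 passaged arrays were listed among 7662 genes detected on those arrays. Nearness was the largest gap over the 3 differences. For Art3 they were Stk35, with a largest gap of 0.17 log2 units, Ccdc80 (0.26), Etf1 (0.28), Akap12 (0.31) and Zdhhc2 (0.34). Etf1, a translation release factor, had signals of 23.6, 142, 159 and 130, and Zdhhc2, a palmitoyltransferase, had 13.0, 71.8, 78.8 and 48.9 from B16 through to the lung line. Stk35, Ccdc80 and Akap12 were not detected on B16, so their differences are lower bounds and their gaps to Art3 are not measured distances. On the deposited scale the probe set of Art3 had median differences from B16 of 0.07, 0.42 and -0.01 in the passaged lines. The other probe set, which holds Ccdc80, Akap12 and Zdhhc2, had 0.39, 0.41 and 0.46, so the gaps of these genes include an offset between sets. The same rule picked A030009A06, Kcnmb4, Lgr5, Traf3ip2 and Tinagl1 for Art4. The Art4 differences are lower bounds themselves, as are those of each of these genes except Tinagl1, so no likeness to Art4 is read from them.

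Genes of ADP-ribosylation outside the family, of NAD supply and of the GPI anchor were then counted from lists. Of 74 listed genes, 59 had a probe, and 2, 3 and 4 were above B16 in the 3 passaged lines in the same order (3.39%, 5.08% and 6.78%, against 4.77%, 7.38% and 7.14% of all genes). Below B16 were 4, 3 and 4 (6.78%, 5.08% and 6.78%, against 4.14%, 3.32% and 3.64%). The median difference of the 59 genes was 0.09, 0.37 and 0.16 log2 units, beside 0.19, 0.31 and 0.14 over all genes. The shares near the background give no result about the lists.

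Among the substrates of the ecto-enzymes, Itgb2, the beta chain of the leukocyte integrins, was not detected on B16 (0.50) and had signals of 2.31 for B16-RI, 2.33 for B16-R2 and 2.76 for the lung line. These lie at least 4.62-fold, 4.66-fold and 5.52-fold over the B16 signal, and the B16-R2 call, at a signal-to-noise ratio of 4.94, was lost when a ratio of 5 was asked. Fgf2, a growth factor, was detected on B16-R2L alone, with 1.08, at least 1.58 log2 units above B16, and this call was lost at a ratio of 5 as well. P2rx7, the channel modified by Art2 in T cells, was detected on every array with 1.98, 2.98, 3.01 and 3.94, and its differences of 0.59, 0.60 and 0.99 log2 units stayed under the limit. The other listed substrates, Itga7, Itgal and Pdgfb, were detected on no array. In all, 1, 1 and 2 of the 6 listed substrates were above B16 (4.77%, 7.38% and 7.14% of all genes) and none below.

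Of the intracellular ADP-ribosyltransferases, 10 of 16 had a probe, 1, 1 and 2 were above B16 (4.77%, 7.38% and 7.14% of all genes), and 1 was below it, in B16-RI (4.14% of all genes). Parp2, which acts at DNA strand breaks, had 37.9 for the parental line, 80.3 for B16-RI, 81.5 for B16-R2 and 77.7 for the lung line, folds of 2.12, 2.15 and 2.05. The B16 spot of Parp2 was over the flag limit, and the call held under 1 of the 4 other scalings in each line. Parp8, a mono-ADP-ribosyltransferase, had 1.92 for B16, 0.74 (not detected) for B16-RI, 2.18 for B16-R2 and 4.69 for the lung line, so that it was below B16 in B16-RI and 2.44-fold above it in B16-R2L.

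Of 6 genes that remove ADP-ribose, none was above B16 (4.77%, 7.38% and 7.14% of all genes). The number below it was 1, 0 and 1 from B16-RI through to the lung line (4.14%, 3.32% and 3.64% of all genes). Macrod1, a hydrolase of protein-bound ADP-ribose, had 7.35 for the parental line, 2.76 for B16-RI, 4.55 for B16-R2 and 9.28 for the lung line and was below B16 in B16-RI alone. Adprhl1, a relative of the ADP-ribosylarginine hydrolase, had 0.85 on B16 and was not detected on the passaged arrays (0.52, 0.44 and 0.21), with B16-R2L past the limit. The B16-R2L spot was over the flag limit, and the call, which rests on a signal-to-noise ratio of 3.27 on B16, was lost at a ratio of 5. Of 5 enzymes of extracellular NAD and nucleotides, none passed in either direction, against the same shares of all genes. With so few genes nothing is read from this count. The NAD glycohydrolases Cd38 and Bst1 and the pyrophosphatase Enpp1 were detected on no array.

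Of the 8 genes with a probe in the list named NAD synthesis, 1, 2 and 2 were below B16 in the passaged lines and none above, where 4.14%, 3.32% and 3.64% of all genes were below. The gene below in every line, Nnmt, makes no NAD but methylates nicotinamide and so removes it from salvage. It had 58.2 for the parental line, 14.8 for B16-RI, 6.05 for B16-R2 and 15.0 for the lung line. It was lowest on B16-R2, the array on which Art3 and Art4 were highest, with log2 differences of -1.97, -3.27 and -1.96. Qprt, which makes nicotinate mononucleotide from quinolinate, was below B16 in B16-R2 (1.20 on B16 and 0.38, not detected, on B16-R2). Its signal-to-noise ratio on B16 was 3.13, and the call was lost at a ratio of 5. Nadsyn1, the NAD synthetase, was below B16 in B16-R2L, with 3.86 on B16 and 1.45 on B16-R2L.

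The GPI anchor genes were mostly within the limit, with 1 of 24 below B16 in every passaged line (4.14%, 3.32% and 3.64% of all genes) and 1 above in B16-R2 (7.38% of all genes). Pigb, a mannosyltransferase of the anchor, had 3.91 on B16 and undetected signals of 0.64, 0.57 and 0.41 on the passaged arrays, which are at least 6.11-fold, 6.86-fold and 9.54-fold lower. A second Pigb probe was also detected on B16 alone, with 0.76 against undetected signals of 0.56, 0.41 and 0.30, and by this probe Pigb was past the limit only in B16-R2L. Pigt, a subunit of the transamidase that attaches the anchor, had 6.28, 6.38, 13.0 and 8.45, which is 2.07-fold above B16 in B16-R2, and this call was lost under all 4 other scalings.

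Markers of other cell types known for these enzymes were read on the same arrays. Of the 7 T cell markers, 3 were detected on every array and 3 on none, with summed signals of 17.9 for the parental line, 21.0 for B16-RI, 25.7 for B16-R2 and 18.7 for the lung line. The remaining marker, Cd3g, was detected on B16-R2L alone, with 1.37 and a signal-to-noise ratio of 3.77, and did not pass the limit. Lck, a kinase of T cells, was above B16 in B16-RI and B16-R2, with 1.10, 2.67, 4.0 and 1.59 on the 4 arrays. Of the 7 macrophage markers, 5 were detected on no array, and their summed signal lay between 7.77 and 8.90. Of the 5 erythroid markers with a probe, 4 were detected on no array, and their summed signals were 7.92, 4.55, 5.87 and 9.23. Epor, the erythropoietin receptor, was the exception, with 3.21, 0.82 (not detected), 2.62 and 3.91, and was below B16 in B16-RI.

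Of the 7 striated muscle markers, 2, 3 and 3 were above B16 in the passaged lines and none below, where 4.77%, 7.38% and 7.14% of all genes were above. Their summed signal was 10.8 for the parental line, 18.0 for B16-RI, 32.2 for B16-R2 and 31.4 for the lung line. Ckm, the muscle creatine kinase, had 2.37, 6.06, 14.2 and 13.0, and Des, the muscle intermediate filament desmin, had 1.15 (not detected), 1.82, 6.92 and 6.08. The Ckm call in B16-RI was lost under 1 of the 4 other scalings. Mylpf, a myosin light chain, had 3.97, 6.11, 8.95 and 9.99, and its call in B16-R2 was lost under all 4 other scalings. Myog, a muscle transcription factor, was detected on B16-RI alone, with 1.84, at least 3.23-fold above B16, and this call was lost at a signal-to-noise ratio of 5. Acta1, Myod1 and Tnnt3 were detected on no array. Of the 6 fibroblast markers, 3 were detected on no array, and their summed signals were 12.2, 19.3, 11.8 and 22.2. Col1a2, a collagen chain, had 6.32, 15.0, 7.40 and 16.7 and was above B16 in B16-RI and B16-R2L, each lost under 1 of the 4 other scalings. Col1a1, its partner chain, had 3.50, 1.36 (not detected), 2.22 and 2.41 and was below B16 in B16-RI, a call lost at a signal-to-noise ratio of 5. The part of other cell types in the Art3 and Art4 signals was not tested, and in RNA of a whole culture more cells with a transcript and more transcript per cell cannot be told apart.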

How the data were processed

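RNA of 4 cultured B16 lines was measured on chemiluminescent Applied Biosystems arrays, of which the 1 labelled array per line was used. For each of 33012 probes the authors deposited a raw and a normalized intensity. The normalized intensity was found to be the raw signal divided by 1 of 2 constants per array, for 2 sets of probes, although the methods name quantile normalization. The signal-to-noise and flag scores are the analyzer's, as deposited. Of the columns, 16 were used. Another 20 columns of second arrays match no labelled sample and were not used, and neither were 24 derived columns of log2 values and ratios. The methods describe duplicates, so how the 4 arrays relate to them is not settled here.

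Log2 was taken without a pseudocount (Python 3.11.15, numpy 2.4.6, pandas 2.3.3, matplotlib 3.10.9). Of 17302 probes with a symbol, 16186 matched the RefSeq gene table, and the brightest probe by mean log2 signal stood for a gene. A call needed a difference of at least 1 log2 unit and detection on the brighter array (signal-to-noise ratio of at least 3, flag of at most 5000). With 1 array per line no test was made, and this number of arrays sets the precision. The calling code was checked on simulated data. The members and lists were chosen with earlier results of these data known. Genes named were all members, listed genes past the limit, the 5 nearest genes with a probe on each side of members with a detected probe, and the 5 genes nearest in pattern to members detected on all passaged arrays. Some listed genes that did not pass the limit, such as P2rx7, Cd38 and Acta1, were named as well. Chemokine, muscle and other marker values were read by the same rules. Alternatives were 4 scalings, 3 detection filters, 2 size limits and any probe of a gene. The planned comparison of protein sequences was not run.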

Additional observations from a re-analysis of the deposited data

How the results depend on the processing

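Of 48 alternative values of the member differences, all kept their direction and moved by less than 1.5-fold, and of 90 alternative counts 61 stayed within 1.5 times. Asking for detection on every array left 1 member gene above B16 in each line, Art3. For the related lists, quantile normalization, 75th percentile scaling and centred probe sets each left 1 gene above B16 in B16-RI and 1 in B16-R2. The same scalings put 5, 5 and 7 genes below B16 in B16-R2. With detection on every array 0, 1 and 0 genes were above and 2, 1 and 2 below in B16-RI, B16-R2 and B16-R2L. A 1.5-fold limit put 8, 14 and 11 genes above in the 3 lines, and 7 below in B16-RI and 7 in B16-R2. A 4-fold limit left 1 above in each line, 1 below in B16-RI and 2 below in B16-R2L, and no detection filter put 8 below in B16-R2L. The share of calls that lay above B16 over all genes was 53.5%, 69.0% and 66.3% as deposited, 46.4%, 55.5% and 56.1% after quantile normalization, 49.8%, 69.1% and 68.2% after median scaling and 44.4%, 46.3% and 51.1% after 75th percentile scaling. With centred probe sets it was 41.6%, 41.2% and 48.3%, and the median of all genes moved from 0.19, 0.31 and 0.14 to 0.00, 0.02 and 0.01 after quantile normalization. The cause was not tested. No replicate could be left out and no paired analysis was possible because only 1 array per line matched a labelled sample and was used. Signals near the detection limit (such as Art5, Art2a, Fgf2, Qprt and Adprhl1) limit what these arrays show.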
